A study of Mus musculus with 21 samples.

Results

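The regions described here are intron starts, the intronic bases 1 to 100 nt downstream of an annotated 5' splice site on the same strand, in introns longer than 500 nt. They were taken from the GENCODE vM1 annotation of the mouse genome build mm9, and bases that lie in any annotated exon were removed. Of 162555 such starts, 148261 kept at least 1 base and 145659 kept all 100, in 22472 genes. Together they made up 1.49% of the bases of introns longer than 500 nt. Positions are counted from 1 at the first base of the intron. No crosslink count was used to choose a start.

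Crosslinks came from iCLIP, in which ultraviolet light joins proteins to the RNA they touch in living cells and the joined nucleotide is read from the point where reverse transcription stops. All 8 iCLIP libraries, of 21 samples in the series, were from unedited mandibular MEPA cells, a line made from pharyngeal arches of 11.5 d.p.c. embryos of CD1 mothers and an Immortomouse father. Immortomouse cells carry a temperature-sensitive T antigen transgene under an interferon-inducible promoter, so their growth depends on temperature and interferon. The cells were grown at 33 °C in 5% CO2 with 100 U/ml murine interferon and irradiated with 400 mJ/cm2 at 254 nm. The 4 RBM10 libraries were precipitated with an antibody against both mouse isoforms, and each was matched by a rabbit IgG control. Libraries of the antibody were read on 1 lane and controls on a different one, so an effect of lane and one of antibody cannot be told apart. Among 14 markers of mandibular arch mesenchyme, 5 reached at least 1 TPM in the 3 wild-type RNA-seq samples of the line, led by Prrx2 (57.4 TPM) and Prrx1 (48.7 TPM), while 7 were listed at 0, Hand2, Barx1 and Msx2 among them. Epithelial, endothelial and skeletal muscle markers all stayed under 1 TPM, 1 of 4 leukocyte markers (Cd68, 1.52 TPM) and 1 of 3 neural markers (Tubb3, 34.8 TPM) passed it, and the neural crest and neuronal markers Sox10 and Elavl3 were at 0.

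The 5' splice site marks the border between an exon and the intron after it, and is recognised early in splicing by the U1 snRNP, whose RNA pairs with the last exon bases and the first intron bases. The intron bases just downstream are a known landing place for proteins that help or hinder this step, such as TIA1 on U-rich stretches. RBM10 is an X-linked RNA-binding protein with RNA recognition motifs and zinc fingers that is known for its effect on the skipping of cassette exons.

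The sequences below are the 100 nt of 9 starts whose crosslinks were higher in RBM10 than in IgG libraries, and of both starts that were lower. They show where in the start and on which base the crosslinks sat. Each runs 5' to 3' along the transcript in mm9, and capitals mark positions that held at least 10% of the start's crosslinks summed over the 4 RBM10 libraries.
Srebf2: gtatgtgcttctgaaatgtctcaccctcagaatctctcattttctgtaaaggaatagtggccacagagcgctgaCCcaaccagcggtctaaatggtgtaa
Mycbp2: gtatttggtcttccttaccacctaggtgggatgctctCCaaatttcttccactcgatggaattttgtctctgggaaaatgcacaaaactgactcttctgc
Kif15: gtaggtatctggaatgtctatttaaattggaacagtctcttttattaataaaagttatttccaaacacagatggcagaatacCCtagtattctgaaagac
Rnf213: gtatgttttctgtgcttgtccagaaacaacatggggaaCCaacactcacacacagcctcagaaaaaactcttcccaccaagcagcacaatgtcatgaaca
Ppp2ca: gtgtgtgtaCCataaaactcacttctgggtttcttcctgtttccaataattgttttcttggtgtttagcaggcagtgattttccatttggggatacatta
Fubp3: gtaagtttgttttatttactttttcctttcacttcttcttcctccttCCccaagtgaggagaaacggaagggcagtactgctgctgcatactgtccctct
Ptbp1: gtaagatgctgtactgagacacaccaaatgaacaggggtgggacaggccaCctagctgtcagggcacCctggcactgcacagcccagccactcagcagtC
Fam120a: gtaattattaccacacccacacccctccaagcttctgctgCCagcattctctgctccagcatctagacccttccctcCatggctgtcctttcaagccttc
Rpl3: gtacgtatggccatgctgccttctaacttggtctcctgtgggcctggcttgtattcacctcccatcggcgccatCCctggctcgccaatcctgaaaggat
Hist1h2bc: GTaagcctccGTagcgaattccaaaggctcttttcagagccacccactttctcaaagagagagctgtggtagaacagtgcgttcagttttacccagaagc
Gnl3: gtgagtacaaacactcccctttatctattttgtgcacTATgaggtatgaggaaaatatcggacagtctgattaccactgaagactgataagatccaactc

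In the 9 higher starts above, the capitals were all on C. Among the 17 higher starts that the rule for named starts took, 14 had at least 1 position with 10% of the RBM10 crosslinks, and 3, Pmpca and Pole among them, had none. There were 33 such positions, 31 on C, 2 on U and none on A or G, and 12 of the starts had 2 of them on neighbouring C bases. In the Srebf2 start this pair was at nt 75 and 76 and held 48.5% of the crosslinks. The Mycbp2 pair at nt 38 and 39 held 55.9%, the Kif15 pair at nt 83 and 84 held 67.5% and the Ppp2ca pair at nt 10 and 11 held 67.7%. The pairs lay at both ends of the 100 nt as well as in the middle.

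RBM10 crosslinks were denser at intron starts than deeper in the same introns, while IgG crosslinks had about the same density in both places. The RBM10 libraries held 40032, 87137, 161159 and 37937 crosslinks at intron starts, and the IgG libraries 10405, 19536, 1112 and 1593. As a share of all crosslinks in introns longer than 500 nt, starts held 6.58, 5.82, 8.88 and 8.78% in RBM10 libraries and 2.36, 1.91, 2.30 and 2.38% in IgG libraries. The groups did not overlap, and RBM10 replicates 3 and 4 lay above replicates 1 and 2. The means were 7.52% ± 1.55 (SD, n = 4) and 2.24% ± 0.221 (SD, n = 4), a difference of 5.28 percentage points (exact permutation test, 2-sided, p = 0.0286). This is the smallest p that 4 against 4 libraries allow. With each RBM10 library set against its own IgG library, the share was higher in 4 of 4 pairs, and exact sign flips gave p = 0.125, the smallest that 4 pairs allow. The same p of 0.125 was the least that exact sign flips could give for every comparison of 4 pairs below, so each permutation call ends under the paired test.

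To set aside how strongly a host gene was transcribed, crosslinks per base at the start were divided by those beyond 200 and up to 400 nt of the same introns, here called the inner window. The log2 ratio was 1.18, 1.06, 1.52 and 1.51 in the RBM10 libraries and 0.05, −0.21, 0.00 and 0.13 in the IgG libraries. Every RBM10 library lay above every IgG library. The means of 1.32 ± 0.23 and −0.01 ± 0.14 (SD, n = 4 each) correspond to a 2.50-fold density at RBM10 starts and a 0.996-fold density at IgG starts (exact permutation test, 2-sided, p = 0.0286).

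Intron ends, the last 100 nt before the 3' splice site and the most similar region, were denser still in the RBM10 libraries. In CPM, the crosslinks per 1000000 crosslinks of the whole library, starts had per kb 2.44, 2.08, 3.85 and 3.33 in RBM10 libraries and 0.733, 0.600, 0.734 and 0.685 in IgG libraries. Ends had 6.37, 5.43, 11.0 and 9.17 CPM per kb in RBM10 libraries and 0.988, 0.625, 0.853 and 0.720 in IgG libraries. The log2 ratio of start over end was −1.38, −1.39, −1.51 and −1.46 with RBM10 and −0.43, −0.06, −0.22 and −0.07 with IgG, with no overlap (exact permutation test, 2-sided, p = 0.0286). Beside single exons with at least 20 RBM10 crosslinks, the same order was seen for most. Of 11754 internal exons with at least 20 RBM10 crosslinks in the adjoining intron end and start together, 79.3% had more at the upstream intron end and 19.8% had more at the downstream intron start. In 15.2% the start had none. Since ends were denser, exons reached this limit more readily through them, so these shares are a description and no added support. With IgG only 24 exons reached the same limit, 58.3% with more at the end and 41.7% with more at the start.

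**Figure D1:**
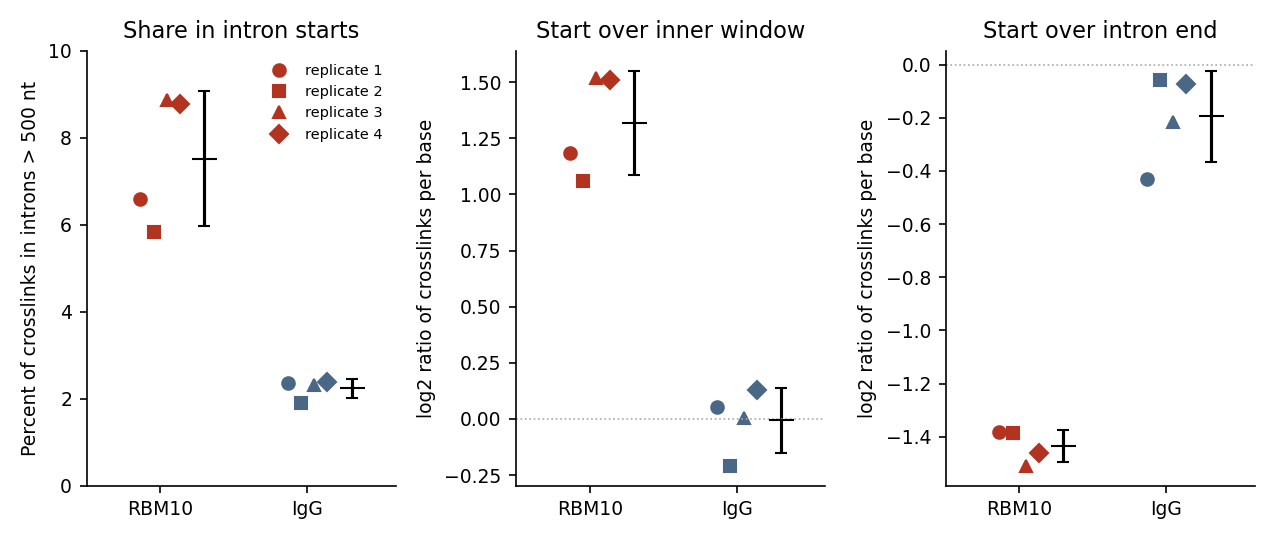
Each point is 1 iCLIP library, with RBM10 and IgG libraries in separate columns and bars for the mean and SD of 4 libraries. The panels show the share of crosslinks of introns longer than 500 nt that lay at intron starts (percent), and the log2 densities of starts over inner windows and over intron ends; in each the RBM10 and IgG libraries do not overlap.

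The crosslinks were spread over many starts. RBM10 libraries had a crosslink at 21277, 32659, 41320 and 16083 starts, and IgG libraries at 8007, 11600, 833 and 706. In all, 54948 starts were hit in at least 1 RBM10 library and 6708 in all 4, while 11 were hit in all 4 IgG libraries. There were 3517 starts hit in all 4 RBM10 libraries and in no IgG library, and 89811 hit in none of the 8. These counts depend on depth. IgG replicates 3 and 4 held 1112 and 1593 start crosslinks, so no more than 706 starts could be hit in all 4 IgG libraries. The same counts were not made for inner and end windows, and the part of depth in them was not tested. The 10 most crosslinked starts held between 1.34 and 1.69% of the start crosslinks of an RBM10 library and between 1.70 and 9.92% of those of an IgG library. Single positions repeated less often than starts did. Of the positions hit with RBM10, 89.2% were hit in 1 library and 902 positions were hit in all 4, the latter holding 4.26% of the crosslinks, and with IgG 4 positions were hit in all 4 libraries. The same limit of depth applies to positions.

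Within the 100 nt, RBM10 crosslinks were most frequent near the middle and least frequent in the first 20 nt. In bins of 10 nt, density relative to the inner window was 1.11 ± 0.196 at 1 to 10 nt and highest at 41 to 50 nt, where the RBM10 libraries had 3.11, 2.80, 4.07 and 4.07. The IgG libraries had 1.16, 0.893, 1.13 and 1.73 there. RBM10 density was 2.08 ± 0.279 at 91 to 100 nt, the last bin inside the window, and was 1.93 ± 0.259 in the next 10 nt, the first bin outside it. IgG densities in those bins were 0.992 and 0.962. The edge of the window is therefore not an edge in the signal. Every RBM10 library lay above every IgG library in each 10 nt bin up to 190 nt, and the groups overlapped in the bin that ends at 200 nt (1.17 against 1.01). Inside the splice site consensus, nt 2 stood at 2.37 ± 0.531 in RBM10 libraries and nt 3 at 0.290, against 1.49 and 0.256 in IgG libraries. Across the limit on intron length, starts in introns of over 400 and up to 500 nt had 4.02 ± 1.08 RBM10 CPM per kb and those of over 500 and up to 600 nt had 3.95 ± 1.06 (SD, n = 4 each).

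**Figure D2:**
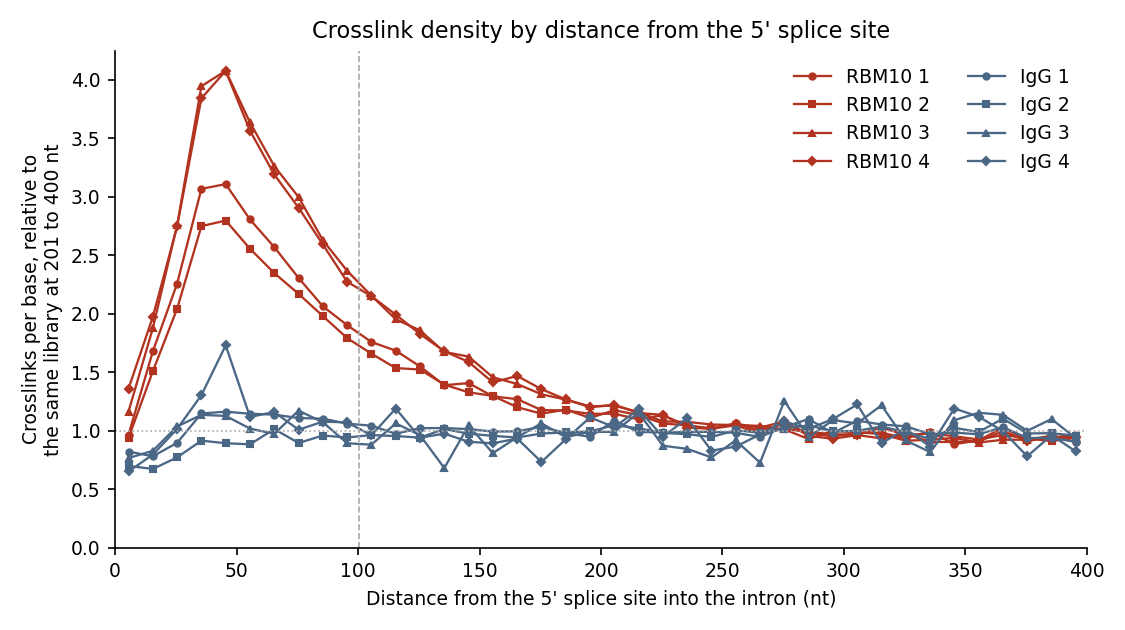
Crosslink density in bins of 10 nt from the 5' splice site (x axis, nt) relative to the density in the inner window of the same introns (y axis, 1 means equal), with a line for each of 4 RBM10 (red) and 4 IgG (blue) libraries and a dashed line at the edge of the intron start. The RBM10 lines are highest at 41 to 50 nt, with a mean of 3.51, and average 1.93 just beyond 100 nt, while the IgG lines lie below 1 in the first 20 nt (0.652 to 0.822 at 1 to 10 nt) and replicate 4 reaches 1.73 at 41 to 50 nt.

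As shares of start crosslinks, which do not depend on how many there were, the first 20 nt held 11.6, 11.7, 10.6 and 11.7% in RBM10 libraries and 15.5, 15.9, 15.9 and 13.2% in IgG libraries. The RBM10 libraries were lower throughout (exact permutation test, 2-sided, p adjusted over 5 bins = 0.0476). At 21 to 40 nt the shares were 23.2% ± 0.222 and 20.5% ± 1.07 (SD, n = 4 each), higher with RBM10 (exact permutation test, adjusted p = 0.0476). At 81 to 100 nt they were 17.5% ± 0.419 and 20.5% ± 1.13, lower with RBM10 (exact permutation test, adjusted p = 0.0476). At 61 to 80 nt the shares of 21.6% and 21.2% did not pass the test (exact permutation test, adjusted p = 0.771).

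The bin at 41 to 60 nt, which held the RBM10 maximum, did not pass, and 1 position touched that result. RBM10 libraries had 26.0, 25.6, 26.9 and 26.8% of start crosslinks there and IgG libraries 22.3, 20.6, 21.4 and 26.1% (exact permutation test, adjusted p = 0.107). IgG replicate 4 alone overlapped the RBM10 range. In that library 90 of its 1593 start crosslinks, or 5.65%, were at nt 42 of a single start, in intron 2 of Pydc4 (chr1:175525052-175525151, minus strand, intron of 976 nt). RBM10 replicate 4 had 92 crosslinks at the same base. The whole start held 9, 5, 10 and 92 crosslinks with RBM10 and 16, 9, 10 and 90 with IgG. Without this start, the share of IgG replicate 4 at 41 to 60 nt was 21.6% and the difference between group means was 5.03 points (exact permutation test, adjusted p = 0.0357). How duplicate reads and library barcodes were handled is not given in the sources used here, and the part of either in the high count that replicate 4 of both antibodies shared at this base was not tested.

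First introns showed a smaller excess at their start than later introns. Of the starts, 25893 were first in every transcript that used the splice site and 113014 were first in none. In first introns the log2 density of start over inner window was 0.41, 0.21, 0.66 and 0.66 in RBM10 libraries, and in later introns it was 1.31, 1.20, 1.63 and 1.64. In each RBM10 library the later introns were higher. The difference, first minus later, was −0.90, −0.99, −0.97 and −0.98 with RBM10 (mean −0.96 ± 0.04, a ratio of 0.513) and −0.16, −0.13, −0.21 and −0.61 with IgG (mean −0.28 ± 0.22, a ratio of 0.823). The groups did not overlap (exact permutation test, 2-sided, p = 0.0286), and IgG replicate 4 lay apart from the other three. Without the Pydc4 start its value was −0.50. First introns made up 17.5% of the starts and held 9.37% of RBM10 and 19.3% of IgG start crosslinks.

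Among later introns, the log2 density of start over inner window was not tested by place in the transcript. Within libraries, introns 2 and 3 lay above introns 4 and beyond in RBM10 replicates 1, 3 and 4 and below them in replicate 2. Last introns, which are also counted in the class of their number, lay above introns 4 and beyond in every RBM10 library. In replicate 2 the values were 1.212 and 1.207. Intron 2 stood at 1.49 ± 0.28, intron 3 at 1.50 ± 0.27, introns 4 and beyond at 1.43 ± 0.21 and last introns at 1.51 ± 0.25 on the log2 scale of start over inner window in RBM10 libraries. The 9354 starts that were first in some transcripts and later in others stood at 1.38 ± 0.26. First introns also differed from later ones in base composition and length, with a median GC content of 56% against 46% at the start and a median length of 4086 against 2054 nt. Within starts of under 45% GC, first and later introns had 0.00 and 1.24 with RBM10, at 45 to 55% GC they had 0.71 and 1.72, and at 55% GC or more 0.47 and 1.34. In IgG libraries first and later introns had −0.29 and −0.22, −0.16 and 0.34, and −0.26 and 0.12 in the same order of classes. With RBM10 the later introns were thus higher in all 3 classes in every library. With IgG they were higher in every library at 45 to 55% GC and at 55% GC or more. Under 45% GC the IgG order was mixed, with first introns higher in replicate 1 (−0.214 against −0.216) and replicate 3 (−0.177 against −0.204). The contrast of RBM10 with IgG was tested in the middle class alone, where it was −0.52, and in genes with both kinds of start, where it was −0.61 (exact permutation test, p = 0.0286 for both). In the middle class the groups nearly met. First and later introns stood at 1.111 and 1.879 in RBM10 replicate 3 and at −0.050 and 0.717 in IgG replicate 4, almost the same difference. The shape along the 100 nt was alike, with 11.1 and 11.4% of RBM10 crosslinks at 1 to 20 nt and 25.3 and 26.5% at 41 to 60 nt in first and later introns.

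**Figure D3:**
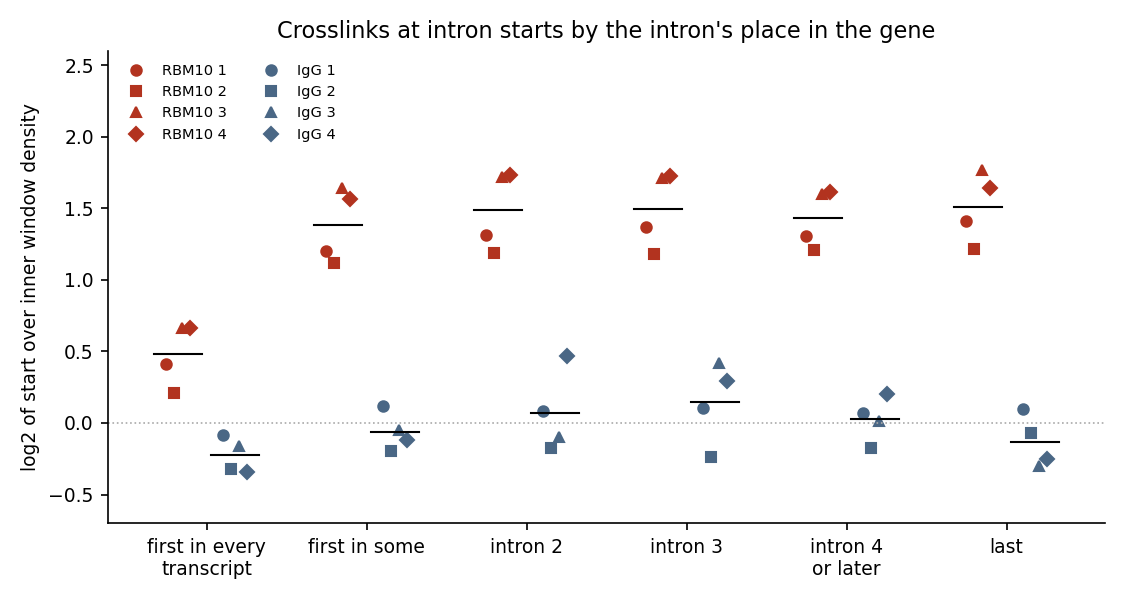
Log2 crosslink density of intron starts over inner windows, by the place of the intron in its transcripts, with a point for each of 4 RBM10 and 4 IgG libraries and a black line at the mean of each group. RBM10 first introns average 0.48 and the other classes 1.38 to 1.51, while IgG first introns average −0.23. Last introns are also counted in the class of their number.

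Starts after cassette exons, which some transcript of the gene skips, were compared with starts after other internal exons. RBM10 libraries averaged 1.33 ± 0.26 over 12543 cassette starts and 1.47 ± 0.22 over 100471 others (SD, n = 4 each, log2 of start over inner window). The difference was −0.14 ± 0.05 with RBM10 and 0.05 ± 0.14 with IgG, which did not pass the test (exact permutation test, 2-sided, p = 0.0857). Cassette starts had 13.3% of their RBM10 crosslinks at 1 to 20 nt and the others 11.1%, values that were not tested against each other.

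The match of the first 6 intron bases to GTAAGT, the sequence that pairs with U1 RNA, went with the excess. A full match was present at 22182 starts (1.49 in RBM10 libraries), and 63052 starts matched at 4 or fewer bases (1.21). The difference of these log2 ratios was 0.20, 0.29, 0.27 and 0.35 in RBM10 libraries and −0.16, −0.20, −0.30 and −0.01 in IgG libraries. It was above 0 in all RBM10 libraries and below 0 in all IgG libraries (exact permutation test, 2-sided, p = 0.0286). The order was not even across all classes, since starts that matched at 3, 4 and 5 bases stood at 1.31, 1.19 and 1.36. By intron length the RBM10 ratio was 1.04 up to 1000 nt, 1.51 from there up to 5000 nt, 1.34 from there up to 20000 nt and 0.86 in longer introns, and that of IgG was 0.13, 0.03, −0.15 and −0.34.

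The crosslinked base differed sharply between the antibodies. At intron starts C took 45.9, 44.7, 48.2 and 47.5% of crosslinks in RBM10 libraries and 20.2, 14.3, 16.5 and 16.0% in IgG libraries. Every RBM10 library lay far above every IgG library. U took 33.6, 34.7, 31.4 and 31.2% with RBM10 and 49.8% ± 2.58 with IgG, G took 15.3% ± 0.244 and 25.7% ± 2.08, and A took 5.43% ± 0.405 and 7.86% ± 0.718 (SD, n = 4 each). C was higher and U, G and A were lower with RBM10 (exact permutation test, p adjusted over 4 bases = 0.0286 for each). The bases of the starts themselves were 21.3% C, 28.9% U, 25.7% G and 24.1% A. In the inner windows C took 39.2% ± 4.91 with RBM10 and 13.9% ± 1.23 with IgG. C was therefore frequent under RBM10 crosslinks there too, and in each of the 8 libraries, RBM10 and IgG alike, it was more frequent at starts. Along the start the RBM10 share on C was 36.8% at 1 to 20 nt, 49.3% at 21 to 40, 49.7% at 41 to 60, 46.4% at 61 to 80 and 44.9% at 81 to 100 nt, while the IgG share stayed between 13.0 and 17.9%.

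**Figure D4:**
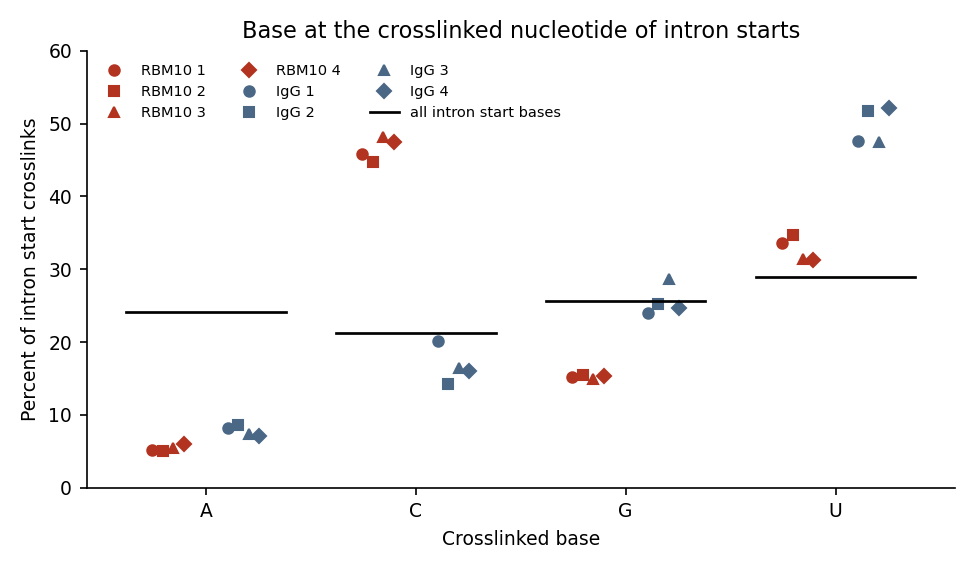
Percent of intron start crosslinks on each base (x axis A, C, G, U), with a point per library and a black line for the share of that base among all intron start bases. C holds 46.6% of RBM10 and 16.7% of IgG crosslinks at a base share of 21.3%, and U holds 32.7 and 49.8% at 28.9%.

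The neighbours of the crosslinked base added to this. With the crosslink on the middle base, UCC held 9.83% ± 1.22 of RBM10 and 2.29% ± 0.573 of IgG crosslinks at starts, where 1.66% of bases lie in that context, an excess of 5.94-fold and 1.39-fold. CCC (3.98-fold), ACC (3.62-fold) and CCU (3.24-fold) followed with RBM10. Relative to its share of bases AAG was lowest, with 0.163% of RBM10 crosslinks at 1.92% of bases (0.0847-fold). These contexts were read after their values were seen and were not tested. The motif CCCC, searched on the transcript strand only and wholly within 10 nt of the crosslink, lay near 8.88% ± 0.421 of RBM10 and 5.53% ± 0.840 of IgG crosslinks, and near 5.75% of all start bases. TGTGG lay near 3.50 and 4.16%, against 3.40% of start bases, and TTTT near 11.0 and 15.4%, against 11.8%. CCCC was higher and the other two were lower with RBM10 (exact permutation test, p adjusted over 3 motifs = 0.0286 for each). In the inner windows CCCC lay near 8.55% of RBM10 and 5.54% of IgG crosslinks, so its higher share was not particular to starts. TGTGG lay near 3.70 and 3.63% there, and TTTT near 13.0 and 20.5%. Overlapping matches of a motif near a crosslink counted as 1.

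Single starts were compared in a table that also held the inner and end window of every intron. Only 70 starts, of 710 windows in all, had enough counts to be tested with edgeR's quasi-likelihood test. Of the 70, 65 were higher and 2 lower in RBM10 at an adjusted p under 0.05. Over all 710 windows 97.5% were higher and 0.563% lower, so the starts' count is near the background and is no result about starts, and a start passed the count filter mostly through its RBM10 crosslinks. The split depended on the scaling. Library sizes were total crosslinks corrected by TMM factors from windows of 5000 nt over the genome, which put the median window at a log2 ratio of 4.44. The CPM of single starts below are on these corrected sizes, unlike the CPM per kb above, which are on plain totals. With TMM factors from the intron windows the median was 1.61, and 13 of 80 starts were higher and 5 lower, where 23.3% of 827 windows were higher and 2.9% lower. In that scaling 9 of the 19 starts that the rule took lost their call, among them Ptbp1, Fubp3, Rnf213, Ppp2ca, Fanca, Fam120a, Rpl3 and Nlrc5. The starts named below were taken by these same values, by lowest p or by RBM10 level. Their p-values and ratios come from the genome-wide scaling, where the median window stood at 4.44. They describe the starts and are no added support.

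The start in intron 7 of Srebf2, a transcription factor of cholesterol synthesis genes (chr15:82008018-82008117, plus strand), held 13, 38, 38 and 12 crosslinks in the RBM10 libraries and 0 in each IgG library. That is at least 13.3-fold higher in CPM over the summed libraries, with a floor of 3 counts over the IgG group (edgeR adjusted p = 3.12e-14). All RBM10 libraries had the start at 11.5 to 15.8 CPM, a narrow range. In intron 18 of Mycbp2, a large ubiquitin ligase (chr14:103668475-103668574, minus strand), the counts were 14, 35, 53 and 9 and again 0 with IgG, at least 14.7-fold higher (edgeR adjusted p = 3.12e-14). Pmpca, a subunit of the mitochondrial processing peptidase (chr2:26246098-26246197, plus strand), had 18, 38, 53 and 8 against 0, at least 15.5-fold higher (edgeR adjusted p = 6.44e-13). Kif15, a kinesin of the mitotic spindle (chr9:122901121-122901220, plus strand), had 12, 38, 65 and 11 against 0, at least 16.6-fold higher (edgeR adjusted p = 3.87e-12). These were the 4 named starts with no IgG crosslink at all.

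Starts with 1 or 2 IgG crosslinks had wide intervals on their ratio. Ptbp1, itself a repressor of exon inclusion, had 16, 32, 39 and 8 crosslinks with RBM10 and 1, 0, 0 and 0 with IgG at the start of intron 7 (chr10:79322701-79322800, plus strand). The ratio was 37.6, with a counting interval (95%) of 6.59 to 1502 (edgeR adjusted p = 4.09e-12). Such ratios are of crosslinks summed over each group, divided by the summed corrected library sizes, so deep libraries weigh most. Fubp3, which binds single-stranded nucleic acid, had 15, 42, 53 and 10 against 1, 0, 0 and 0 at a start with the full GTAAGT match (chr2:31452172-31452271, plus strand), a ratio of 47.5 with an interval of 8.37 to 1893 (edgeR adjusted p = 1.02e-10). Ppp2ca, the catalytic subunit of protein phosphatase 2A, had 17, 34, 67 and 9 against 2, 0, 0 and 0 (chr11:51931663-51931762, plus strand, in an intron of 508 nt), a ratio of 25.2 (edgeR adjusted p = 4.19e-09). Rnf213, a ubiquitin ligase (chr11:119307520-119307619), had 13, 47, 49 and 12 crosslinks against 0, 0, 1 and 0. Its ratio over the summed libraries was 47.9, with an interval of 8.44 to 1909. Its mean CPM were 15.1 with RBM10 and 2.12 with IgG, since the 1 IgG crosslink fell in the shallow replicate 3. Pole, a DNA polymerase subunit (chr5:110733019-110733118), had 16, 52, 69 and 16 against 0, 1, 0 and 0, a ratio of 60.6. Fanca, a Fanconi anaemia protein (chr8:125798932-125799031, minus strand), had 9, 33, 70 and 10 against 0, 0, 0 and 2. Its groups overlapped in CPM, since the 2 IgG crosslinks fell in a shallow library. Calu, a calcium-binding protein of the endoplasmic reticulum, had 17, 38, 105 and 26 against 0, 1, 0 and 0 on 72 bases, because nt 73 to 100 of that start are exon in other Calu transcripts (chr6:29311488-29311587, plus strand).

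The most crosslinked start in each RBM10 library was in intron 15 of Fam120a, which encodes an RNA-binding scaffold protein (chr13:48984393-48984492, minus strand). It held 193, 286, 547 and 127 crosslinks with RBM10 and 19, 4, 0 and 0 with IgG. That is 155.8 ± 38.6 and 6.14 ± 10.9 CPM (SD, n = 4 each), a log2 ratio of 4.21 (edgeR adjusted p = 1.16e-07), and no RBM10 library came near an IgG library. Of these crosslinks 55.4% sat on C at nt 41, 42 and 78. The first intron of Rpl3, a ribosomal protein gene (chr15:79913654-79913753, minus strand), had 60, 204, 499 and 96 crosslinks with RBM10 and 6, 16, 2 and 0 with IgG, a log2 ratio of 3.76 (edgeR adjusted p = 2.40e-06). Wls, needed for the secretion of Wnt proteins (chr3:159574788-159574887, plus strand), had 67, 154, 230 and 95 against 3, 1, 1 and 0 (log2 5.28). Wnk1, a kinase of ion transport (chr6:119896155-119896254, minus strand), had 35, 34, 144 and 44 against 1, 1, 0 and 0 (log2 5.62), with 66.9% of its RBM10 crosslinks on 3 positions. Nlrc5, an activator of MHC class I genes (chr8:97013482-97013581, plus strand), had 38, 81, 137 and 29 against 4, 5, 0 and 0 (log2 3.62). The log2 ratios of Fam120a, Rpl3 and Nlrc5 lay below 4.44, the median over all 710 windows, and those of Wls and Wnk1 lay above it. RBM10 replicate 3 had the most crosslinks at each of these 5 starts. The deepest RBM10 libraries are replicates 2 and 3, with 2847066 and 2845634 crosslinks in all. In CPM, replicate 3 was highest at Fam120a, Rpl3 and Nlrc5, and replicate 4 at Wls (125.3) and Wnk1 (58.1).

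**Figure D5:**
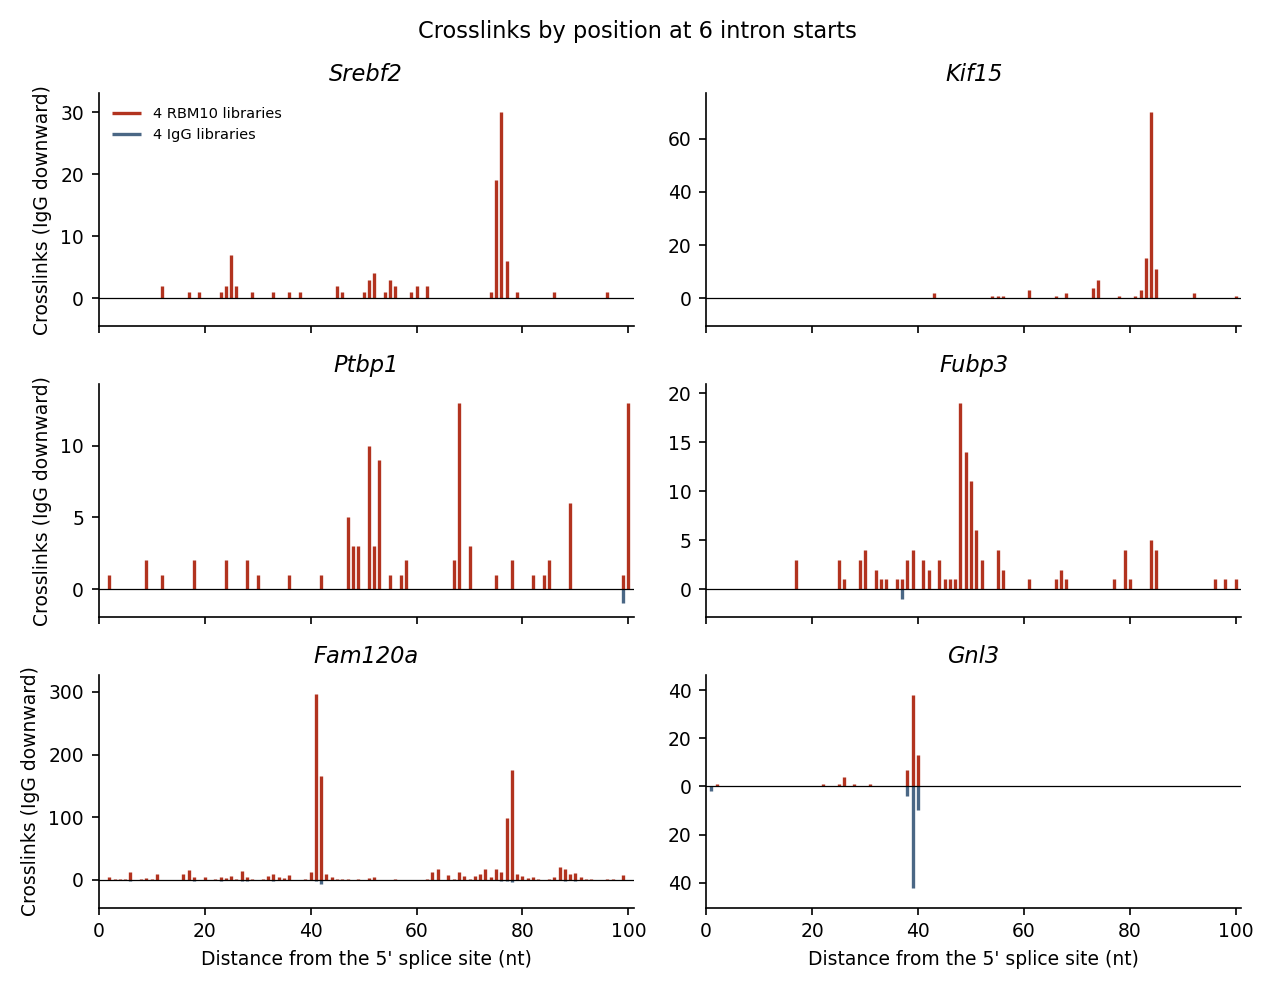
Crosslinks summed over 4 RBM10 libraries (up) and 4 IgG libraries (down) at each nt of 6 named intron starts (x axis, nt from the 5' splice site; y axis, crosslinks, on a scale of its own in each panel). In the Kif15 and Srebf2 starts a pair of neighbouring positions holds 67.5 and 48.5% of the RBM10 crosslinks, and in the Gnl3 start nt 38 to 40 hold 86.6%.

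Both lower starts were unlike the others in what lay at them. The first intron of Hist1h2bc, a histone H2B gene (chr13:23776491-23776590, plus strand), had 9, 48, 11 and 7 crosslinks with RBM10 and 29, 62, 4 and 5 with IgG. These were 9.39 ± 5.37 and 32.3 ± 2.64 CPM (SD, n = 4 each), with every RBM10 library below every IgG library (log2 −1.77, SE 0.564, edgeR adjusted p = 0.00186). The crosslinks sat in the first bases of the intron, with 15 RBM10 and 15 IgG crosslinks at nt 2 and 16 of each at nt 12. At the start in Gnl3, which encodes nucleostemin (chr14:31829408-31829507, minus strand), only 40 bases were left, because nt 41 to 100 are the exon of the small nucleolar RNA Snord19. It held 14, 41, 10 and 2 crosslinks with RBM10 and 21, 34, 2 and 1 with IgG, and the groups overlapped at 8.16 ± 5.99 and 16.3 ± 7.91 CPM (log2 −1.10, SE 0.485, edgeR adjusted p = 0.0239). The base at nt 39 alone held 38 RBM10 and 42 IgG crosslinks, beside that exon. The Gnl3 call ended with DESeq2 (log2 −1.02, adjusted p = 0.126), with the replicates paired in edgeR (log2 −0.99, adjusted p = 0.166), without TMM factors (log2 −0.96, adjusted p = 0.0501) and at the limit of 10 crosslinks (log2 −1.08, adjusted p = 0.0842). It also ended when RBM10 replicate 3 or 4 or IgG replicate 1 or 3 was left out, with edgeR adjusted p from 0.0611 to 0.188.

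Among the 2851 starts with at least 20 RBM10 crosslinks, the strongest position held a median of 18.8% of them. That position was at a median of nt 49, with quartiles at 35 and 69, and it lay at 1 to 20 nt in 8.52% of the starts, at 21 to 60 nt in 57.6% and at 61 to 100 nt in 33.9%. In 2.81% of these starts it held most of the crosslinks.

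Rbm10 and its paralogs Rbm5 and Rbm6, which share its domains and also regulate splicing, had crosslinks at most of their own starts. Over all genes, 54948 of 148261 starts were hit in at least 1 RBM10 library. The 3 genes were not tested against this, and host gene expression was not taken into account. Rbm10 had 11, 18, 41 and 6 crosslinks with RBM10 and 2, 5, 0 and 2 with IgG over its starts, 8 of 9 of which were hit. Rbm5 had 13, 33, 71 and 10 against 3, 5, 0 and 0, with 14 of 15 starts hit, and Rbm6 had 6, 32, 64 and 21 against 3, 6, 0 and 3, with 13 of 17 hit. None of these starts had enough counts for the test above. With a lower limit of 10 crosslinks over all libraries, 9407 starts were tested, of which 4922 were higher and 19 lower, where 57.2% of 40518 windows were higher and 0.365% lower. The gene lists below are read at that limit, which starts also passed mostly through RBM10 crosslinks, so their counts are a description. Of 41 starts in the 3 genes, 12 were tested and 7 were higher (58.3%, beside 52.3% of all starts tested), all others not passing. The start of intron 4 of Rbm10 (chrX:20218383-20218482) had 3, 5, 15 and 4 crosslinks against 0, at least 3.57-fold higher (edgeR adjusted p = 0.00338), with 40.7% of them at nt 92. That of intron 2 of Rbm6 had 2, 9, 15 and 10 against 1, 0, 0 and 0 (edgeR adjusted p = 0.00525).

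Genes of 5' splice site recognition, the U1 proteins and their helpers, had 222 starts, of which 59 were tested and 31 were higher. Prpf39, a U1-associated factor, had 20, 39, 126 and 13 crosslinks against 0, 3, 0 and 0, a ratio of 26.2 with an interval of 8.82 to 128 (edgeR adjusted p = 4.64e-06). Snrnp70, the U1 70K protein, had 15, 29, 75 and 16 against 0, 2, 0 and 0, a ratio of 26.7 (edgeR adjusted p = 1.21e-05), and Luc7l3, another U1-associated protein, 14, 18, 34 and 6 against 0, at least 9.51-fold higher (edgeR adjusted p = 2.02e-05). The hnRNP genes, whose proteins coat nascent RNA, had 128 starts, of which 59 were tested and 31 were higher. Pcbp2, which itself binds poly(C), had 9, 27, 42 and 11 against 0, at least 11.8-fold higher (edgeR adjusted p = 6.14e-06), and Hnrnpm 6, 24, 39 and 11 against 0, at least 10.6-fold higher (edgeR adjusted p = 1.25e-05). In both lists the calls were near those of all starts tested.

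The SR protein genes, whose proteins bind exonic enhancers, had 63 starts, of which 24 were tested and 5 were higher. That is 20.8%, beside 52.3% of all starts tested, a difference that was not tested. Tra2b had 6, 12, 44 and 8 crosslinks against 1, 1, 0 and 0 (edgeR adjusted p = 0.00113), and Srsf7, at a start after a cassette exon, 5, 8, 15 and 1 against 0, at least 3.83-fold higher (edgeR adjusted p = 0.00329). Their start over inner log2 density in RBM10 libraries was 0.74 ± 0.32, beside 1.47 ± 0.28 for the recognition genes, 1.25 ± 0.36 for the hnRNP genes and 1.32 ± 0.23 for all starts (SD, n = 4 each). These list values were not tested against each other. Genes of SR protein kinases and cyclins L had 57 starts, 16 tested and 7 higher (43.8%), with Clk3 at 9, 22, 55 and 21 against 2, 3, 0 and 0 (edgeR adjusted p = 0.000567). Genes reported as RBM10 splicing targets had 135 starts, 23 tested and 15 higher (65.2%). Rbm10 itself is in this list as well as in that of the paralogs. With so few starts, neither share was tested against the 52.3% of all starts. Vcl, which encodes the adhesion protein vinculin, had 1, 19, 22 and 5 against 0, at least 6.21-fold higher (edgeR adjusted p = 0.000396), and Eif4h, a translation initiation factor, 13, 12, 35 and 14 against 0, 4, 1 and 0 (edgeR adjusted p = 0.00389). No tested start in any of the 6 lists was lower, and over all genes 19 of 9407 were.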

How the data were processed

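The iCLIP files hold crosslink counts for each base and strand as the authors deposited them, 1 file per library, with 774816 to 2847066 crosslinks in the RBM10 and 103017 to 2214515 in the IgG libraries. Per the labels' design text, crosslinked bases were derived from reads of 50 nt aligned to mm9. The submitters' processing notes name mm9 and mm10. Which aligner was used and whether barcodes or duplicates were collapsed is not given in the sources used here, so intervals cover counting error only. TPM per transcript, as the authors deposited them for the same line, served only for the cell type markers (84877 of 100249 transcripts joined to GENCODE vM1, 84.7%). The members, gene lists and named starts were chosen with earlier results of these data known.

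Counts were summed in start, inner (beyond 200 and up to 400 nt) and end windows with Python 3.11.15, numpy 2.4.6, pandas 2.3.3 and pysam 0.24.0. Sequences were read from mm9 (NCBIM37). Library values were compared by exact permutation of 4 against 4 libraries (scipy 1.17.1, 2-sided, 70 arrangements, smallest p 0.0286) with Benjamini-Hochberg adjustment within a family. Window counts were tested with edgeR 4.0.16 (R 4.3.3, quasi-likelihood, filterByExpr) on library totals times TMM factors from windows of 5000 nt. DESeq2 1.42.0, other scalings and filters, positions counted once, introns longer than 1000 nt and each replicate left out were alternatives. The edgeR step was tested on simulated data, with 200 of 710 windows changed. Changes of log2 −2 and 2 were called in 83.6 and 84.8% of their windows. Those of log2 −1 and 1 were called in only 17.1 and 9.6%. Among the unchanged windows 7 were called.

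The design text gives each RBM10 replicate its own IgG control, so equal numbers were taken as pairs. Their deviations from the group means over windows correlated at 0.196, 0.162, 0.00762 and 0.0911.

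Named starts were at most 1 per gene (that with the lowest p), without symbols of predicted genes, RIKEN clones, microRNAs or pseudogenes, and none on chromosome 18. They were the 12 higher starts with the lowest p, the lower starts, and the 5 of these with the highest RBM10 level, which passed over starts of Pkm2, Thbs1 and Col1a2 (45.3, 44.9 and 38.7 CPM) in genes whose lowest p was at another start. 1 start the rule takes is not reported here. List members, Pydc4 and the nucleotide contexts were named after their values were seen.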

Additional observations from a re-analysis of the deposited data

Results flagged for a closer look

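In groups of 4 libraries, a library was set apart when its gap to the nearest other, divided by the group's range, passed Dixon's limit for 4 values, as chance makes about 5% of groups do. IgG replicate 2 had the lowest share of long-intron crosslinks at intron starts among the IgG libraries, at 1.91%. In the first 20 nt of the start, RBM10 replicate 3 was lowest of the RBM10 libraries at 10.6%, and IgG replicate 4 was lowest of the IgG libraries at 13.2%. IgG replicate 4 was also lowest of the IgG libraries in the log2 difference between first and later introns, at −0.61. Without the Pydc4 start, whose nt 42 held 90 of its 1593 start crosslinks, the values of IgG replicate 4 were 14.0% and −0.50.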

How the results depend on the processing

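Each difference below is RBM10 minus IgG. Paired by number (replicate block, exact sign flips), the differences were as reported and none of the calls held, since 4 pairs cannot give a p under 0.125: share 5.28 points, start over inner 1.33 and start over end −1.24 (log2), 1 to 20 nt −3.72, 21 to 40 nt 2.67 and 81 to 100 nt −3.04 points, first against later −0.68 and GTAAGT match 0.44 (log2), C 29.8, U −17.0, G −10.4 and A −2.43 points, CCCC 3.35, TGTGG −0.66 and TTTT −4.38 points. Leaving out 1 library allows no p under 0.0571, and these differences ranged over 4.83 to 5.85, 1.26 to 1.41, −1.32 to −1.20, −4.34 to −3.45, 2.34 to 3.05, −3.34 to −2.55, −0.79 to −0.63, 0.40 to 0.50, 29.0 to 31.0, −17.8 to −16.2, −10.9 to −9.38, −2.67 to −2.16, 3.10 to 3.61, −0.79 to −0.50 and −4.89 to −3.99 in that order, with 3.08 to 4.92 at 41 to 60 nt and −0.15 to 0.60 at 61 to 80 nt. Without IgG replicates 3 and 4, the shallowest, chosen after seeing the data (smallest p 0.133), they were 5.39, 1.40, −1.19, −4.26, 3.59, −3.93, −0.82, 0.46, 29.3, −16.9, −9.37, −3.03, 3.32, −0.61 and −3.85 in the order above. The 21 to 40 nt bin missed the threshold with each position counted once (2.45) and in introns longer than 1000 nt (2.37). The 41 to 60 nt bin passed it there (4.42 and 5.14) and without the Pydc4 start, also chosen after seeing the data (5.03). At 61 to 80 nt, never called, the sign turned in these 3 settings (−0.0397, −0.23 and −0.0192) and without IgG replicates 3 and 4 (−0.31). The count of higher and lower starts, 65 and 2, was 13 and 5 with TMM factors from intron windows, 4922 and 19 at 10 crosslinks, 12 and 0 with each position counted once, and 374 and 6 without IgG replicates 3 and 4. It was 64 and 2 with the replicate block in edgeR. Lower starts numbered 1 without TMM factors and 1 with DESeq2. Leaving out 1 library gave 35 to 166 higher and 1 to 4 lower starts, with 35 without RBM10 replicate 3, and 154, 166 and 153 without IgG replicates 1, 3 and 4. At their depth, IgG replicates 3 and 4 had a crosslink at 833 and 706 of 148261 starts.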
